A study of Mus musculus with 4 samples.

Results

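The genes examined were the nuclear genes of the mitochondrial respiratory chain and the ATP synthase, measured on microarrays of innate lymphoid cells of the mouse. Members were all genes with a single platform symbol beginning with Nduf, Uqcr, Cox4 to Cox8 or Atp5, together with Sdha, Sdhb, Sdhc and Sdhd, and they came to 89 of 19938 named genes. The rule picked members by symbol and not by level, but it was set with earlier results of these data known. Where a gene had several probe sets, the one with the highest mean stood for it. By complex, 41 members belonged to complex I (7 of them assembly factors), 4 to complex II, 8 to complex III, 19 to complex IV and 17 to complex V. Ndufa4 and Ndufa4l2, named after complex I, were counted with complex IV, where the NDUFA4 protein is now placed. The pattern also matches Cox7c and Ndufb4, whose probe sets carry several symbols and were left out.

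The study profiled CCR6+ group 3 innate lymphoid cells (ILC3), lymphocytes without rearranged antigen receptors, from the mesenteric (gut-draining) lymph node of C57BL/6 mice that the title calls naive. The labels name no transgene, allele or agent and give no age. Cells were sorted as CD127+ CD90.2+ CCR6+ ST2-, and total RNA was labelled with biotin for 4 arrays, numbered 1 to 4, which form the single group. Whether each array had its own animal, pool or sort is not stated in the labels, and part of the spread between arrays may be technical. No second group was analysed and no difference between conditions was tested.

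The respiratory chain passes electrons from NADH (through complex I) and from succinate (through complex II) to ubiquinone, then through complex III and cytochrome c to complex IV, which reduces oxygen. Complexes I, III and IV pump protons across the inner mitochondrial membrane, and complex V uses the gradient to make ATP. Most subunits are encoded in the nucleus, a few in mitochondrial DNA. Several subunits of complex IV exist as a general form and as a form known from muscle, lung or testis. Resting lymphocytes are known to rely largely on this pathway for ATP.

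Values are log2 levels per probe set. A probe set's level depends on how well its probes bind, so a level was set against background and not against the level of another gene. Receptor genes for smell, pheromones, trace amines and bitter taste, 1241 in all, served as background, and a gene was called above background when its detection p, adjusted over all named genes, was under 0.05. The lowest mean called was 6.37. As a stricter reading, a gene had to lie on every array above 7.42, the highest value of 15 genes of other organs, because 6 of these were themselves called. All levels are given as mean ± SD over the 4 arrays (n = 4).

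The arrays had medians of 5.99 to 6.03 over all probe sets. The sort gate genes Il7r at 12.56 ± 0.057, Thy1 at 11.36 ± 0.15 and Ccr6 at 10.49 ± 0.086 were called, as were 7 of 7 ILC3 genes measured. Markers of other cells were called as well, and their counts stand beside 46.2% of all named genes. B cell markers were called in 10 of 11 cases, with means of the called genes of 8.87, 8.02, 9.02 and 7.84 on arrays 1 to 4, and T cell markers in 9 of 11, with means of 8.08, 7.996, 8.29 and 8.01. NK and ILC1 markers were called in 6 of 10 cases, ILC2 markers in 3 of 5, dendritic markers in 4 of 9 and macrophage markers in 2 of 8. The dendritic and macrophage shares, 44.4% and 25%, lie below that of all named genes. The NK and ILC1 share and the ILC2 share, 60% each, are not far above it in short lists. The B cell and T cell shares, 90.9% and 81.8%, lie further above it. These counts alone do not show that such cells were present. All of these cells carry a respiratory chain, and in bulk RNA the share of cells of a type cannot be told apart from the RNA per cell.

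All general subunits among the members were above background. The 8 members that were not were 7 restricted isoforms of complex IV and the assembly factor Ndufaf6. Of the 89 members 81 were called, 91.0%, against 46.2% of all named genes, and 76 members, 85.4%, lay above all genes of other organs, against 24.1% of all named genes. Among the 81, means ran from 6.85 for Ndufaf1 to 12.30 for Cox6a1. Members above the background call but not above all genes of other organs were Ndufaf1, Ndufaf7, Ndufb3, Ndufv1 and Cox6a2. The members nearest the call were Ndufaf1 at 6.85 ± 0.23 on its inner side and Cox4i2 at 6.02 ± 0.060 on its outer side, with adjusted detection p of 0.0293 and 0.0728. Limma's test against the 95th percentile of background called 82 members, the 82nd being Cox4i2, against 54% of all named genes.

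**Figure D1:**
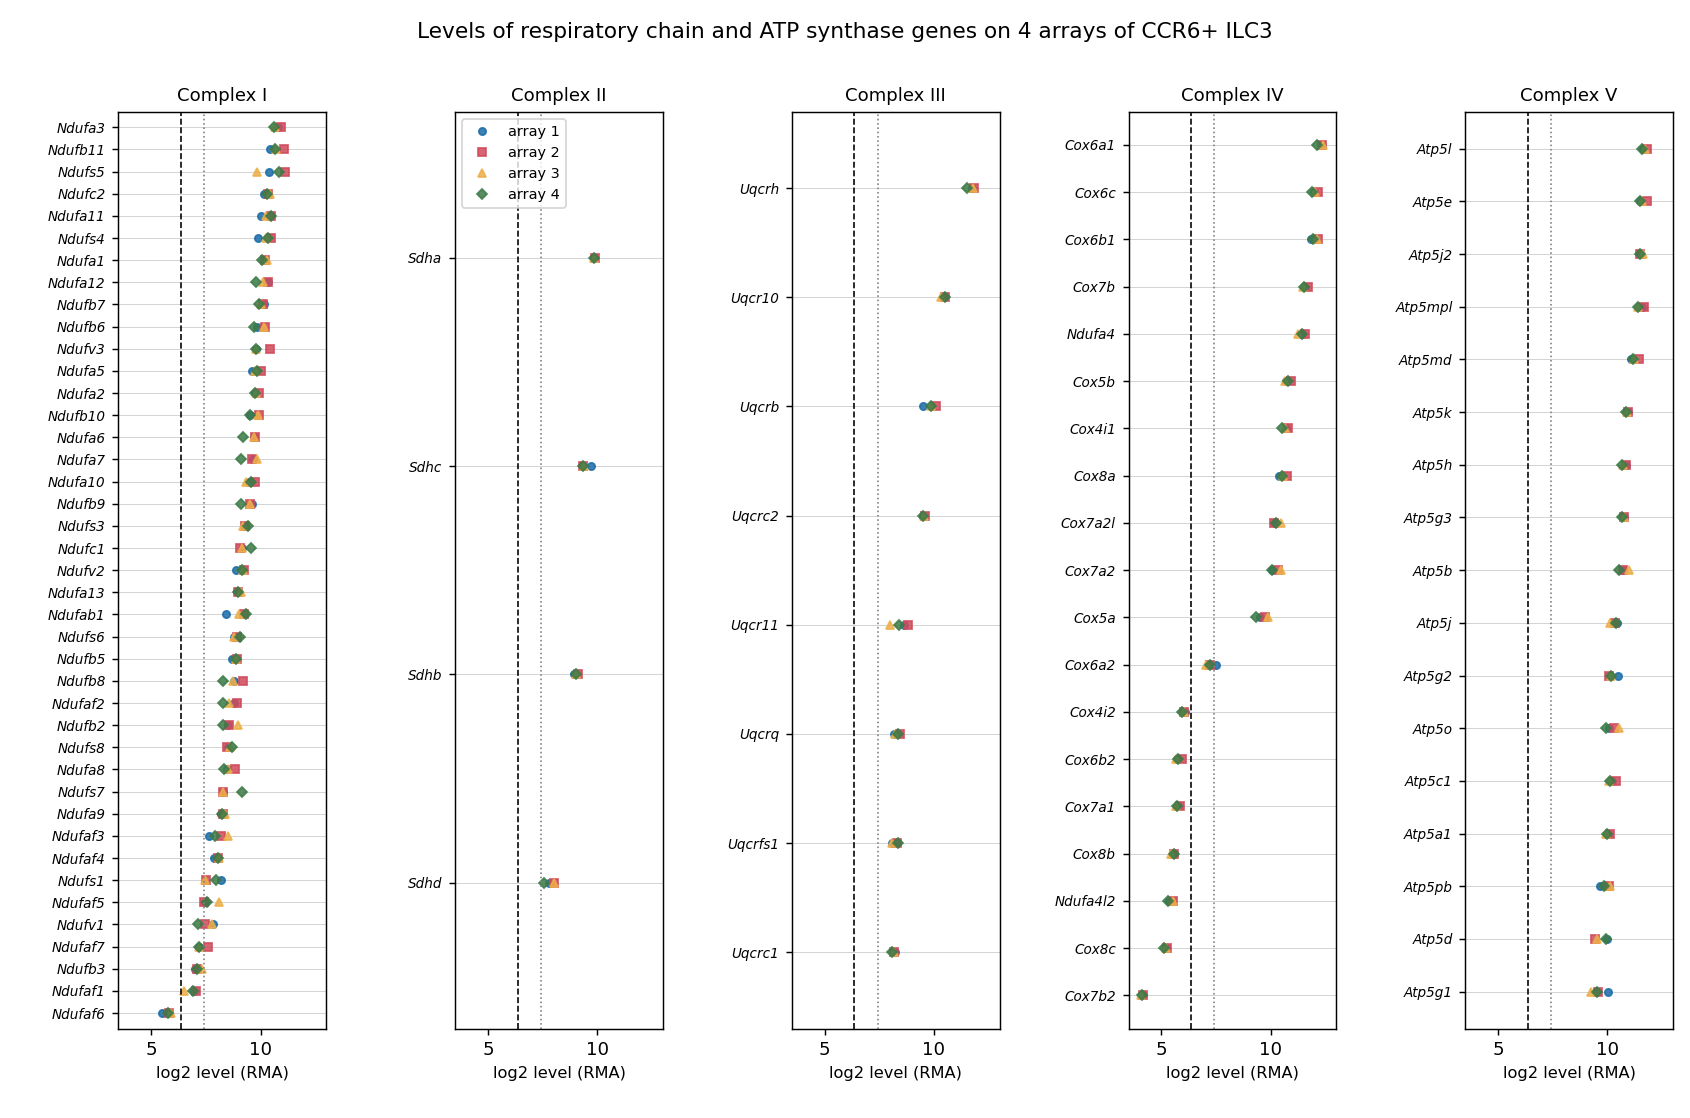
Log2 level of each of the 89 genes on arrays 1 to 4 (one symbol per array), grouped by complex and ordered within a panel by the mean. The dashed line is the lowest mean called above background (6.37) and the dotted line the highest value of genes of other organs (7.42), and 7 of the 8 genes left of the dashed line are in the complex IV panel.

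Complex I, which oxidises NADH, had 34 of 34 subunits above background. The core subunits carry the flavin and the iron-sulfur clusters or bind ubiquinone, and 6 of 6 were called. Ndufs3 at 9.30 ± 0.10 and Ndufs8 at 8.58 ± 0.10 had SDs below the members' median of 0.159, and Ndufv2, at 9.12 ± 0.17, a somewhat larger one. Ndufs7, which holds an iron-sulfur cluster near the ubiquinone site, was at 8.30, 8.30, 8.29 and 9.15 on arrays 1 to 4. Array 4 stood alone there, and the other arrays lay at 8.29 to 8.30. Ndufs1, the largest subunit, was at 8.18, 7.52, 7.46 and 7.98, with arrays 1 and 4 above arrays 2 and 3. Ndufv1, the flavin-binding subunit, was at 7.85, 7.44, 7.80 and 7.16, so that array 4 fell below the highest value of the genes of other organs.

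Of the 28 accessory subunits, which surround the core, 28 were called and 27 lay above all genes of other organs. Ndufa3 at 10.76 ± 0.14, Ndufc2 at 10.31 ± 0.10 and Ndufa1 at 10.18 ± 0.087 were among those well above background, and Ndufb3 at 7.13 ± 0.13 was the exception. The largest SD of all members above background was that of Ndufs5, at 10.37, 11.13, 9.85 and 10.84 on arrays 1 to 4. Arrays 2 and 4 were higher than arrays 1 and 3, by a range of 1.28. A probe set that names both Ndufs5 and its pseudogene Ndufs5-ps, and is not counted among the members, had the same order, at 9.48, 10.06, 9.18 and 9.75. Ndufab1, the mitochondrial acyl carrier protein, was at 8.44, 9.24, 9.004 and 9.32, with array 1 below the others. Ndufb8, a subunit of the membrane arm, was at 8.78, 9.20, 8.73 and 8.29, highest on array 2 and lowest on array 4.

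The complex I assembly factors build the complex and are not part of it. Of 7 measured, 6 were called, and 4 exceeded the genes of other organs on every array. Ndufaf2 was at 8.64 ± 0.28, Ndufaf4 at 8.02 ± 0.12 and Ndufaf5 at 7.64 ± 0.32. Ndufaf3 was at 7.65, 8.19, 8.52 and 7.90 on arrays 1 to 4, highest on array 3. Ndufaf6, at 5.52, 5.82, 5.89 and 5.79, was not called, with an adjusted detection p of 0.0917, and was the only member outside the complex IV isoforms of which this was true.

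Complex II, the succinate dehydrogenase that also serves the tricarboxylic acid (TCA) cycle, had 4 of 4 subunits above background and above all genes of other organs. Sdha, the flavoprotein, was at 9.87, 9.88, 9.87 and 9.85 on arrays 1 to 4. Its SD of 0.013 was the smallest of all members above background. Sdhb, the iron-sulfur subunit, was at 9.02 ± 0.084, and of the membrane anchors Sdhc was at 9.71, 9.37, 9.39 and 9.34 and Sdhd at 7.81, 8.01, 8.02 and 7.56. Array 1 was high for Sdhc and array 4 was low for Sdhd.

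Complex III, which passes electrons from ubiquinol to cytochrome c, had 8 of 8 subunits above background and above all genes of other organs. The core proteins Uqcrc1 and Uqcrc2 were at 8.17 ± 0.069 and 9.53 ± 0.048, and Uqcrfs1, the Rieske iron-sulfur protein, at 8.21 ± 0.16. Of the small subunits, Uqcrh, the hinge protein, was at 11.70 ± 0.14 and Uqcr10 at 10.43 ± 0.084. Uqcr11 was at 8.65, 8.81, 8.01 and 8.39, highest on array 2 and lowest on array 3, and Uqcrb at 9.50, 10.10, 9.85 and 9.86, highest on array 2 and lowest on array 1.

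Complex V had 17 of 17 members above background and above all genes of other organs. In the F1 head, which makes ATP, the catalytic subunit gene Atp5b was at 10.72 ± 0.19, its partner Atp5a1 at 10.02 ± 0.076 and the central stalk gene Atp5c1 at 10.18 ± 0.14. Atp5d was at 9.98, 9.44, 9.51 and 9.94, with arrays 1 and 4 above arrays 2 and 3. The peripheral stalk genes Atp5h, Atp5j, Atp5o and Atp5pb were at 9.92 to 10.78. The 5 membrane subunits had SDs from 0.034 to 0.15, with Atp5k at 10.91 ± 0.034, Atp5j2 at 11.52 ± 0.075, Atp5l at 11.69 ± 0.11, Atp5mpl at 11.50 ± 0.14 and Atp5md at 11.22 ± 0.15. The c ring, which turns with the proton flow, is encoded by 3 genes for the same mature protein. Atp5g1 was at 10.04, 9.56, 9.26 and 9.54 and Atp5g2 at 10.48, 10.08, 10.16 and 10.16, both highest on array 1. Atp5g3 was at 10.75, 10.74, 10.74 and 10.64, with array 4 lowest.

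Complex IV had 10 of 10 general subunits above background, and 1 of 8 restricted isoforms. Cox4i1, the general form of the regulatory subunit, was at 10.71, 10.80, 10.65 and 10.53 on arrays 1 to 4, and Cox4i2, known from lung and induced by low oxygen, at 6.06, 6.04, 6.05 and 5.93. The arrays of the isoforms did not overlap within a family, but as probe sets bind differently only the position against background is read here. Cox4i2 was not called, although limma's test and the 95th percentile of background, exceeded on every array, did call it. Cox7a2 was at 10.04, 10.32, 10.49 and 10.07 and its heart and muscle form Cox7a1 at 5.77, 5.87, 5.69 and 5.71. Cox8a was at 10.38, 10.76, 10.56 and 10.53, the heart and muscle form Cox8b at 5.59, 5.57, 5.46 and 5.59 and the testis form Cox8c at 5.22, 5.26, 5.22 and 5.11. The adjusted detection p of Cox7a1, Cox8b and Cox8c were 0.0917, 0.118 and 0.19, so none of the 3 was called.

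The other families were split by the background call in the same way, with 1 exception. On simulated data the call missed most rises of 1 or 2 log2 units, so an uncalled form was not shown to be absent. Cox6b1 was at 11.82, 12.14, 12.11 and 11.93 on arrays 1 to 4 and the testis form Cox6b2 at 5.77 ± 0.13, Cox7b at 11.56 ± 0.10 and the testis form Cox7b2 at 4.13 ± 0.030, and Ndufa4 at 11.42 ± 0.14 and Ndufa4l2, which low oxygen induces, at 5.43 ± 0.13. Cox6b2, Cox7b2 and Ndufa4l2 were not called, at adjusted detection p of 0.0906, 0.632 and 0.13. The exception was Cox6a2, the heart and muscle form of Cox6a1. Cox6a1 was at 12.33, 12.37, 12.38 and 12.11 and Cox6a2 at 7.51, 7.23, 7.04 and 7.23. Cox6a2 was called, at an adjusted detection p of 0.022, but was above 7.42 on array 1 alone. Of 8 markers of heart and muscle 3 were called, Ckm at 7.33 ± 0.14, Tnnt3 at 7.08 ± 0.11 and Acta1 at 6.48 ± 0.059, so levels in this range also occur for genes of other organs. Of 6 testis markers 2 were called. The single-form genes Cox5a at 9.60 ± 0.25, Cox5b at 10.77 ± 0.13 and Cox6c at 12.01 ± 0.10 lay above background and exceeded the genes of other organs on every array. Cox7a2l, known as a factor for supercomplexes of complexes III and IV, did so too, at 10.27 ± 0.14. An RNA level does not show whether its protein works in these cells.

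**Figure D2:**
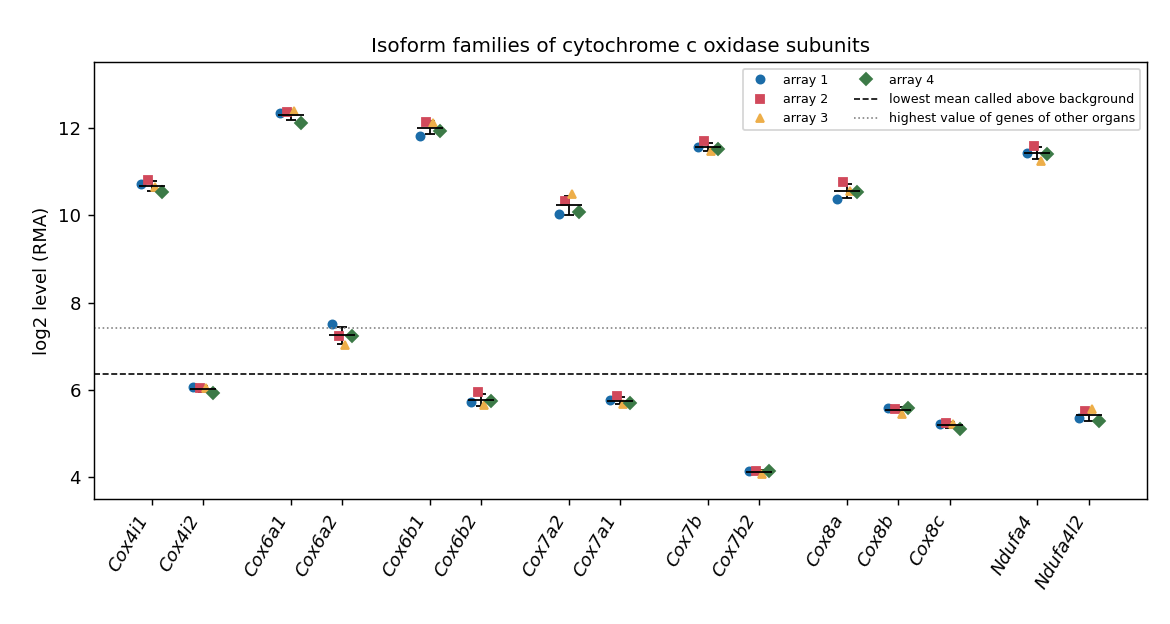
Log2 levels of the isoform families of complex IV on arrays 1 to 4, with the mean (bar) and SD (whiskers, n = 4). The general form of each family lies above both lines, Cox6a2 lies between them on average, and the other 7 restricted isoforms lie below the dashed line at 6.37.

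The promoters of the isoforms differed in sequence. RefSeq start windows of assembly GRCm38.p6, each 300 bases long and reaching from 250 bases before the start to 50 after it, were found for 73 of the 89 members (78 windows). Members without a window are Atp5a1, Atp5mpl, Cox4i1, Cox4i2, Cox6a2, Cox6c, Cox8c, Ndufa2, Ndufa4l2, Ndufaf6, Ndufb9, Ndufs1, Sdhc, Uqcrb, Uqcrc2 and Uqcrq. Below, the 250 bases before the start are shown 5′ to 3′ for 2 families with a called and an uncalled form. Capitals mark matches to the motif CCAAT, the NF-Y box, on either strand, and the other 4 motifs had no match lying whole within these stretches.
Cox7a2 (chr9:79759854-79760103, minus strand): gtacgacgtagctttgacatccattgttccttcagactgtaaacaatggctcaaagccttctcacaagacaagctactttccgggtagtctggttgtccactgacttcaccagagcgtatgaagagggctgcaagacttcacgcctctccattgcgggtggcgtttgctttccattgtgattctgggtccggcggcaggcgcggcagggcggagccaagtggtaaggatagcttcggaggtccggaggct
Cox7a1 (chr7:30183921-30184170, plus strand): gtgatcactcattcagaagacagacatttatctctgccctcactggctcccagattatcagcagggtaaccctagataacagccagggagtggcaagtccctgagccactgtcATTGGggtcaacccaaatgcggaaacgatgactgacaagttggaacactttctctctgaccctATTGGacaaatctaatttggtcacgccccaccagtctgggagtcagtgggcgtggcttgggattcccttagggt
Cox8a (chr19:7217617-7217866, minus strand): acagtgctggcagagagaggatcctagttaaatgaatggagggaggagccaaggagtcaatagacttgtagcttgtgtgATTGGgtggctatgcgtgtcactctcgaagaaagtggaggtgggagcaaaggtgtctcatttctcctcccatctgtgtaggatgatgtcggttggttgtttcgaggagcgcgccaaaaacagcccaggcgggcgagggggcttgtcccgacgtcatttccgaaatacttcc
Cox8b (chr7:140900447-140900696, minus strand): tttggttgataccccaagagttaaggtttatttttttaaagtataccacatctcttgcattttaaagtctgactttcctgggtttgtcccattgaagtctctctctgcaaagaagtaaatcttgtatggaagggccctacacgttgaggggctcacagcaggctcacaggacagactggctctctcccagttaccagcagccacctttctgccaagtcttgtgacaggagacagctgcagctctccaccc
The ratio of observed to expected CpG pairs over the 300 bases was 0.833 for Cox7a2 and 0.333 for Cox7a1, and 0.842 for Cox8a and 0.115 for Cox8b. The ratio was also lower for the uncalled Cox6b2, at 0.432, than for the called Cox6b1, at 0.807. The Cox7b family ran the other way, with 0.368 for the called Cox7b, the lowest of all members above background, and 0.564 for the uncalled Cox7b2. Over all windows of members above background the median was 0.838 (74 windows), and 87.8% were over 0.6, against 70.6% of the windows of all genes above background and 35.8% of all RefSeq windows. The uncalled members with a window, Cox6b2, Cox7a1, Cox7b2 and Cox8b, had 0.115 to 0.564.

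Members were next described by 5 short motifs that the choice by symbol did not use. The motif of NRF1, a factor known to act on respiratory chain genes, whose letters are the capitals shared by both sequences printed at the end of the paragraph, was in 7 of 78 member windows, 8.97%, against 2.25% of the windows of genes above background and 0.971% of all RefSeq windows. The motif AAGATGGC of YY1 was in 10, 12.8%, against 4.82% and 2.75%. The ETS motif CCGGAAGT was in 6.41%, against 8.57% and 3.89%, CCAAT in 42.3%, against 37.0% and 37.4%, and the TATA box TATAAA in 11.5%, against 6.86% and 13.6%. Both strands were searched, and the NRF1 motif reads alike on both. No chance test was made, member windows are few, and a match does not show binding. NRF1 matches were found in Atp5g2, Atp5k, Cox6a1, Ndufa11, Ndufaf4, Ndufaf5 and Uqcrc1. These 7 members belong to 4 of the 5 complexes. The 250 bases before the start are shown for a complex IV and a complex V gene, with NRF1 and CCAAT matches in capitals.
Cox6a1 (chr5:115348959-115349208, minus strand): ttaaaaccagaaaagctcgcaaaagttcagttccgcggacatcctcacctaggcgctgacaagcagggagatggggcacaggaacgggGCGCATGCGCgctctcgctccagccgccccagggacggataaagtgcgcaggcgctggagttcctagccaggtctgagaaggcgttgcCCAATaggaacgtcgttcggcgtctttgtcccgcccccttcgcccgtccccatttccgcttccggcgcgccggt
Atp5k (chr5:108434400-108434649, minus strand): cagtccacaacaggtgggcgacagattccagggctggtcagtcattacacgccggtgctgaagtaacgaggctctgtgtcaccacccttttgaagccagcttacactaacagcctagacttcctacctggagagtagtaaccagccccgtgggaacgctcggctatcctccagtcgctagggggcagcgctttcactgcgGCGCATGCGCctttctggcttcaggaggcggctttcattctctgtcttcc

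**Figure D3:**
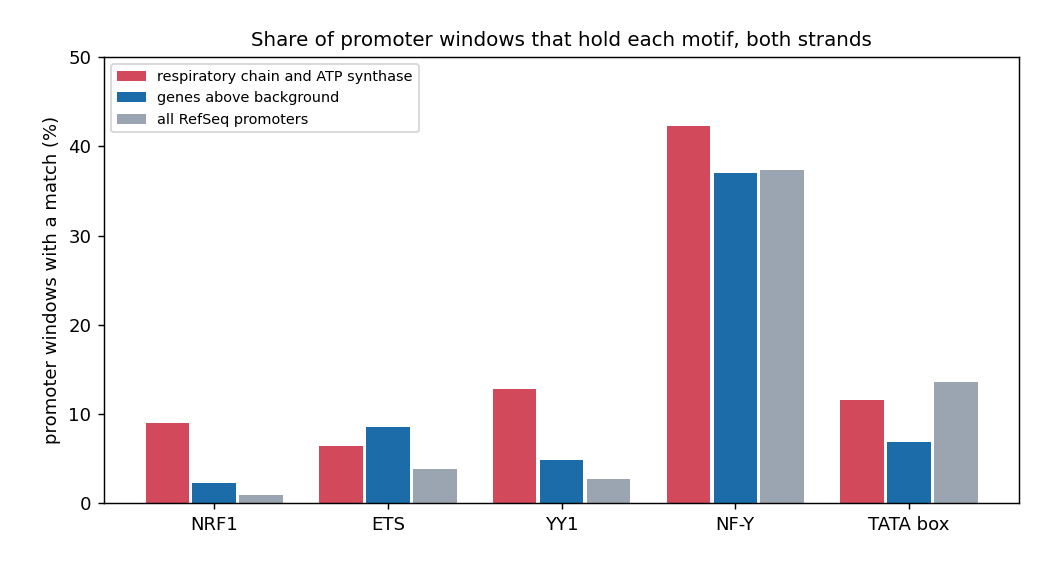
Percent of promoter windows that hold each motif on either strand, for 78 windows of respiratory chain and ATP synthase genes, 9397 windows of genes above background and all 32851 RefSeq windows. The NRF1 and YY1 bars of the members are higher than both others, and the ETS bar is not.

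YY1 matches lay close to the start. Of the 10 matches in members, 8 began 22 to 38 bases after it, against 54.3% of matches at or after the start among genes above background and 40.2% over all RefSeq windows. All 8 ran in the direction of the gene, and 7 of them were in accessory or core genes of complex I. Stretches of 24 bases around the match, in capitals, are shown for 6 of them.
Ndufa3 (chr7:3617387-3617410, plus strand): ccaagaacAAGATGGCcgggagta
Ndufa9 (chr6:126849100-126849123, minus strand): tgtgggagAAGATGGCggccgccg
Ndufc1 (chr3:51408918-51408941, minus strand): tgcggaacAAGATGGCgccgtccg
Ndufs6 (chr13:73328434-73328457, minus strand): tcaccggcAAGATGGCggcggtgc
Ndufs7 (chr10:80249465-80249488, plus strand): ccgaggccAAGATGGCggcgctgg
Atp5j2 (chr5:145191503-145191526, minus strand): aggacttcAAGATGGCgtcactcg
The levels of these genes had no common order over the arrays, with Ndufs7 highest on array 4, Ndufa3 highest on array 2 and Atp5j2 highest on array 3.

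Members were steady between arrays to about the degree of other genes. For the 81 called members the SD had a median of 0.159 on the log2 scale, which is 1.12-fold, against 0.168 over all called genes, and 12 members had an SD over 0.3. The 8 members with the largest SD were Ndufs5, Ndufs7, Ndufab1, Ndufaf3, Ndufb8, Ndufs1, Uqcr11 and Ndufv1, and 7 of these belong to complex I. The median SD was 0.219 for the 40 called members of complex I, 0.139 for the 12 of complex IV and 0.143 for the 17 of complex V.

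The members differed together, by a small amount, in 1 array. Of the 81 members above background 41, 50.6%, were highest on array 2, against 25.9% of all genes above background, and 32 members, 39.5%, were lowest on array 4, against 27.1%. The mean of the 81 members was 9.65, 9.79, 9.69 and 9.63 on arrays 1 to 4. Array 2 thus lay 0.10 above the members' own mean, while over all genes above background it lay 0.008 above. By complex, array 2 was 0.12 above the mean in complex I, 0.05 in complex II, 0.14 in complex III, 0.10 in complex IV and 0.05 in complex V. With 1 group of 4 arrays this difference has no test. Members with 1 probe set alone gave the same picture, with 32 of 64 highest on array 2.

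The members highest on array 2 came from every complex, with 20 of 40 in complex I, 2 of 4 in complex II, 5 of 8 in complex III, 7 of 12 in complex IV and 7 of 17 in complex V. Within complex I the accessory subunits had means of 9.44, 9.69, 9.54 and 9.45 on arrays 1 to 4, while the mean of the 6 core subunits was lowest on array 2, at 8.50, 8.38, 8.42 and 8.59. Single core genes had other orders, as Ndufs8 alone was lowest on array 2 and Ndufv2 was highest there. Ndufv3, an accessory subunit of complex I, was at 9.81, 10.43, 9.80 and 9.78 on arrays 1 to 4, and Ndufb11 at 10.42, 11.05, 10.72 and 10.66. Cox8a at 10.38, 10.76, 10.56 and 10.53 and Atp5md, a small membrane subunit of complex V, at 11.08, 11.43, 11.19 and 11.17 were also highest on array 2. Others had another order, and the c ring genes and Sdhc were highest on array 1. B cell markers were high on arrays 1 and 3 and low on arrays 2 and 4, a different order. With only arrays 2 and 4, picked after their low B cell values were known, the count of members called was again 81. This count cannot tell the part of B cells. The called members had means of 6.85 or more over all arrays, and called B cell markers still averaged 8.02 and 7.84 on arrays 2 and 4. Several neighbouring lists were often highest on array 2 too. Of the complex IV assembly factors 9 of 17 were highest on array 2, as were 5 of 11 regulators. So were 5 of 9 coenzyme Q genes and 3 of 6 carriers and channels, against 1 of 13 genes of the TCA cycle. The mitochondrial DNA genes ND3 and COX2 had means of 12.40, 12.68, 12.33 and 12.52 on arrays 1 to 4, highest on array 2. ND3, at 11.97, 12.58, 11.93 and 12.17, had this order, while COX2, at 12.83, 12.78, 12.74 and 12.87, was highest on array 4. Subunits and partners missed by the symbol pattern had means of 9.81, 10.06, 9.98 and 9.76, also highest on array 2. Atpif1 and Higd1a were highest there, while Cycs and Higd2a were highest on array 3. The part of other cells, RNA quality or array handling in the array 2 difference was not tested.

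**Figure D4:**
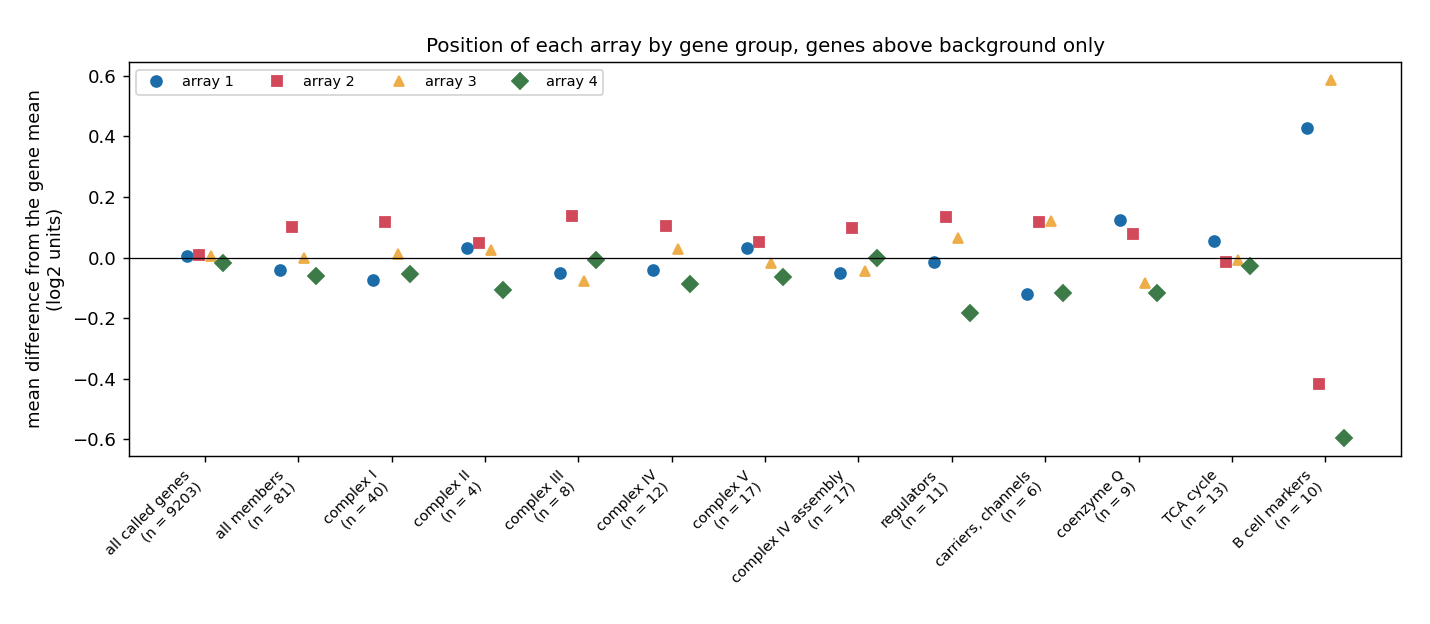
Mean difference of each array from the gene's own mean (log2 units) for genes above background, by gene group, with the number of genes under each name. Array 2 lies highest for all members together (0.10), for each complex, for complex IV assembly factors (0.10) and for regulators (0.13). It does not for carriers, coenzyme Q genes or the TCA cycle, and B cell markers are high on arrays 1 and 3.

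Genes that work beside the members were mostly above background. Subunits and partners that the symbol pattern misses were called in 5 of 5 cases, among them Higd1a and Higd2a, which act with complex IV, at 9.58 ± 0.42 and 10.14 ± 0.25, Cycs, cytochrome c, at 9.78 ± 0.13, and Atpif1, the inhibitor of the ATP synthase, at 10.98 ± 0.32. Of the mitochondrial DNA genes, ND3 and COX2 were measured, at 12.16 ± 0.30 and 12.81 ± 0.055, both called. Assembly factors with other symbols than the Ndufaf genes described above were called in 5 of 7 cases for complex I, 4 of 4 for complex II, 5 of 6 for complex III, 17 of 17 for complex IV and 4 of 4 for complex V. Cox17, a copper chaperone, was at 10.61 ± 0.17, Sdhaf1 at 10.14 ± 0.16 and Uqcc2 at 9.54 ± 0.47, while Foxred1 at 5.66 ± 0.10, Nubpl at 5.26 ± 0.24 and Lyrm7 at 4.91 ± 0.026 were not called. These counts stand beside 46.2% of all named genes.

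The TCA cycle, which feeds the chain with NADH and succinate, was called in 13 of 13 cases, with Idh3g at 10.46 ± 0.18, Mdh2 at 10.05 ± 0.24 and Cs, citrate synthase, at 9.15 ± 0.076. Its means were 8.64, 8.57, 8.57 and 8.56 on arrays 1 to 4, so that it lacked the higher array 2 seen in complex IV assembly factors and regulators. Coenzyme Q genes were called in 9 of 12 cases, with Coq10a at 8.51 ± 0.30 and Coq9 at 7.82 ± 0.31, and Coq7 at 5.94 ± 0.033 not called. Carriers and channels were called in 6 of 9 cases, with Slc25a3, the phosphate carrier, at 9.48 ± 0.13 and Vdac3 at 9.45 ± 0.16, while the uncoupling protein genes Ucp1 at 4.92 ± 0.13 and Ucp3 at 4.87 ± 0.049 and the testis carrier Slc25a31 were not. Of 14 regulators 11 were called. Yy1 was at 9.45 ± 0.13, Myc at 9.005 ± 0.74, Gabpa at 8.99 ± 0.056 and Tfb2m at 8.06 ± 0.16. The coactivator genes Ppargc1a at 4.61 ± 0.24 and Ppargc1b at 5.15 ± 0.17, known for driving mitochondrial genes in muscle and fat, and Esrra at 6.26 ± 0.061 were not called, at adjusted detection p of 0.379, 0.2 and 0.0545.

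More than 1 probe set was present for 17 members, and the highest was used. All of their probe sets had a mean above 6.37, so the call did not rest on the choice, but levels did. The probe sets of Ndufb11 were at 10.71 and 8.37, a gap of 2.34, those of Atp5h spanned 1.74, those of Ndufc1 1.62 and those of Cox7b 1.36. The gap was 0.033 for Atp5g1 and 0.032 for Ndufab1. RefSeq names 14 pseudogenes after members of the list, among them Atp5k-ps1, Atp5l-ps1, Cox5b-ps, Ndufab1-ps and Uqcrh-ps1, and signal from such copies cannot be told apart from that of the gene here.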

How the data were processed

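Total RNA of sorted CCR6+ ILC3 was measured on 4 arrays. The authors deposited log2 values for each probe set, which come from RMA per the submitters' processing notes, a method that removes background, puts arrays on a common scale and combines the probes of a set. Software version and genome build: not given in the sources used here. Scanner files were not used, so background correction could not be varied, and the number of arrays limits the precision.

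Of 35556 probe sets, 21789 had 1 platform symbol, 1621 several (left unnamed) and 12146 were not listed, and 21698 were matched by Entrez identifier to RefSeq (GRCm38.p6). Of several probe sets for a gene, that with the highest mean stood for it. The one-sided detection p was the share of background genes whose mean reached the gene's, with 1 added to both counts, so it could not fall below 0.000805. It was adjusted by Benjamini-Hochberg over 19938 genes. Of the background genes 27 were called. Computing used Python 3.11.15 and, for an alternative, limma 3.58.1 in R 4.3.3. The rule was tested on simulated data. There it called 1% of 200 levels that were not raised and 8.5% of 200 raised by 1 log2 unit. It called 40.5% of those raised by 2 units and 100% of those raised by 4. The rule thus missed most rises of 1 or 2 log2 units, and a gene not called may still lie above background. The levels that were not raised were drawn from the background genes themselves, so their low share was set in advance. It is not a rate of false calls for other genes, and in the real data 6 of 15 genes of other organs were called.

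The members and lists were chosen with earlier results of these data known. Members are named by role, with all members not called, all isoform families and the 8 called members with the largest SD. From other lists up to 4 called and 3 uncalled genes with the highest means may be named, and sort gate and marker genes beside results. Promoter windows were searched for exact letters. The alternatives changed the detection rule, background genes, filter, probe set choice, normalization, arrays used, motif strand and genes compared.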

Additional observations from a re-analysis of the deposited data

Results flagged for a closer look

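A sample far from the others was found for 11 of the 89 members and for 1 of 29 group means, by the gap to the nearest other array as a share of the whole range, set against Dixon's 95% critical value for 4 samples. Chance flags about 1 in 20 groups, or 5%. For 8 members 2 or more arrays had the same value. Among genes above background the share was 11.1% of members and 9.38% of all genes, so members are near the background.

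Array 4 was low for Ndufa6 at 9.22 (others 9.71 to 9.76), Atp5g3 at 10.64 (others 10.74 to 10.75) and Cox4i2, which was not called, at 5.93 (others 6.04 to 6.06). It was high for Ndufs7 at 9.15 (others 8.29 to 8.30). Array 2 was high for Ndufv3 at 10.43 (others 9.78 to 9.81) and for the assembly factor Ndufaf7 at 7.60 (others 7.18 to 7.20). Array 3 was high for Ndufa13 at 9.11 (others at 8.98 to 8.99) and Ndufaf5 at 8.11 (others 7.44 to 7.55), and low for the uncalled Cox7b2 at 4.08 (others 4.14 to 4.15). Array 1 was high for Sdhc at 9.71 (others 9.34 to 9.39) and low for Ndufb5 at 8.71 (others 8.90 to 8.91). The mean of complex II was low on array 4, at 8.94 (others 9.07 to 9.10).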

How the results depend on the processing

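The count of members above background was 81 with olfactory receptors alone as background, with only genes above the background median adjusted, with the mean of all probe sets, with quantile normalization, with median centring and without each array in turn, and 82 by limma and by the 95th percentile of background exceeded on every array, both of which added Cox4i2. Among members with 1 probe set, 64 of 72 were called, 11 of them in complex V. Without each array the count above all genes of other organs was 76 to 77 and the median SD 0.147 to 0.163. Using the mean of all probe sets lowered the members' means on arrays 1 to 4 to 9.57, 9.71, 9.61 and 9.54, by construction, and left array 2 highest. Settings for the count of members highest on array 2 were chosen after seeing the data. Median centring gave 35 of 81, against 21.8% of all genes above background, quantile normalization 41, the mean of all probe sets 40, and genes with 1 probe set 32 of 64. On the strand of the gene alone the share of member windows was 1.28% for the ETS motif, 23.1% for CCAAT and 3.85% for the TATA box. Small marker lists changed most. Heart and muscle markers went from 3 to 5 of 8 by limma and by the 95th percentile. Cell cycle markers (0 of 5 called, 3 at an unadjusted p under 0.05) went to 1 by both, and erythroid markers (0 of 2, 1 at an unadjusted p under 0.05, 0 by limma) to 1 by the 95th percentile. Macrophage markers went from 2 to 4 of 8 with only genes above the background median adjusted, and to 2 to 4 without single arrays. Complex III assembly factors went from 5 to 3 of 6 with olfactory receptors alone as background. The cause of these shifts was not tested. The count above all genes of other organs does not use the detection rule and was not rerun for its alternatives. No paired analysis was possible because there is 1 group. Signal near background limits the calls, since the lowest mean called was 6.37 and the background genes had a median of 4.25.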

Other observations

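Probe sets with several symbols were kept out of the members but showed signal well above background. A probe set shared by Cox7c, a general subunit of complex IV, and the gene model Gm12338 was at 11.28, 11.29, 11.48 and 11.28 on arrays 1 to 4, with a mean of 11.33, and 2 others with the same symbols both had a mean of 11.32. Probe sets shared by Ndufb4 and Ndufb4b were at 9.26, 9.92, 10.01 and 9.72, and at 9.32, 10.09, 10.20 and 9.81, lowest on array 1. These are accessory subunits of complex I, and which of the copies gave the signal cannot be told apart.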
